A study of Rattus norvegicus with 8 samples.

Results

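In INS-1 cells without virus at 11 mM glucose, the listed transcripts were higher with forskolin than with DMSO by very unequal amounts. Inducible transcription factors and signal inhibitors were at the top. Stress response genes, transporters and beta cell transcription factors lay mostly between 2-fold and 4-fold, as did 63.3% of all genes described here. The genes described here are those of the deposited A-CREB table with a mean of 1 FPKM or more over its 4 libraries, which left 392 of 566 genes (69.3%). FPKM counts sequenced fragments scaled to transcript length and library size. The study measured RNA in 8 libraries of INS-1, a rat insulinoma line that secretes insulin and stands in for beta cells, with 1 library per group, in 2 tables of 4 libraries. The groups compared were 10 µM forskolin for 2 h and DMSO vehicle for 2 h, both at 11 mM glucose without virus. The same table holds forskolin and DMSO libraries of cells given an adenovirus for 2 days, labelled ACREBvirus, also at 11 mM glucose. The glucose table holds forskolin and DMSO libraries of cells kept for 3 days at 2.8 mM or 20 mM glucose.

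The authors had cut the table to genes whose forskolin value without virus was more than 2 times the DMSO value, and the lowest ratio listed was 2.003. A higher level with forskolin is therefore a property of the list and not a finding, and nothing here tests it. Just inside the level threshold, Ubxn7 had 1.34 FPKM with forskolin and 0.550 FPKM with DMSO, and Thbs1 had 2.01 and 0.202 FPKM. Just outside it, Ptprcap had 1.43 FPKM with forskolin and 0.440 FPKM with DMSO, and Acvr1c had 2.05 and 1.01 FPKM. With 1 library a side there is no measure of spread between cultures, so levels and folds are given without a test.

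Forskolin activates adenylyl cyclase and so raises cyclic AMP (cAMP). The cAMP releases the catalytic subunits of protein kinase A, which phosphorylate the transcription factor CREB bound at cAMP response elements, and CRTC coactivators, held back by salt-inducible kinases, join it. In beta cells cAMP is the messenger through which incretin hormones amplify insulin secretion. A-CREB pairs with CREB and keeps it from DNA.

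Over the 392 genes the forskolin level had a median of 24.4 FPKM, with quartiles of 4.42 and 98.3 FPKM. The DMSO level had a median of 4.92 FPKM, with quartiles of 1.25 and 22.0 FPKM. A level of 100 FPKM or more was reached by 98 genes with forskolin and by 14 with DMSO. Folds are given as (forskolin + 0.1)/(DMSO + 0.1), which understates the change of low genes. The median log2 fold was 1.50 (95% order-statistic interval over genes 1.42 to 1.58), a fold of 2.84, with quartiles of 1.14 and 2.28 on the log2 scale. The 174 listed genes under the level threshold had a median log2 fold of 0.97. Of the 392 genes, 125 (31.9%) had a fold of 4 or more, 61 (15.6%) a fold of 8 or more, 10 a fold of 32 or more and 6 a fold of 100 or more. At the lower end, 83 genes (21.2%) had a plain ratio below 2.2. In bulk RNA, more cells of a type and more RNA per cell cannot be told apart.

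**Figure D1:**
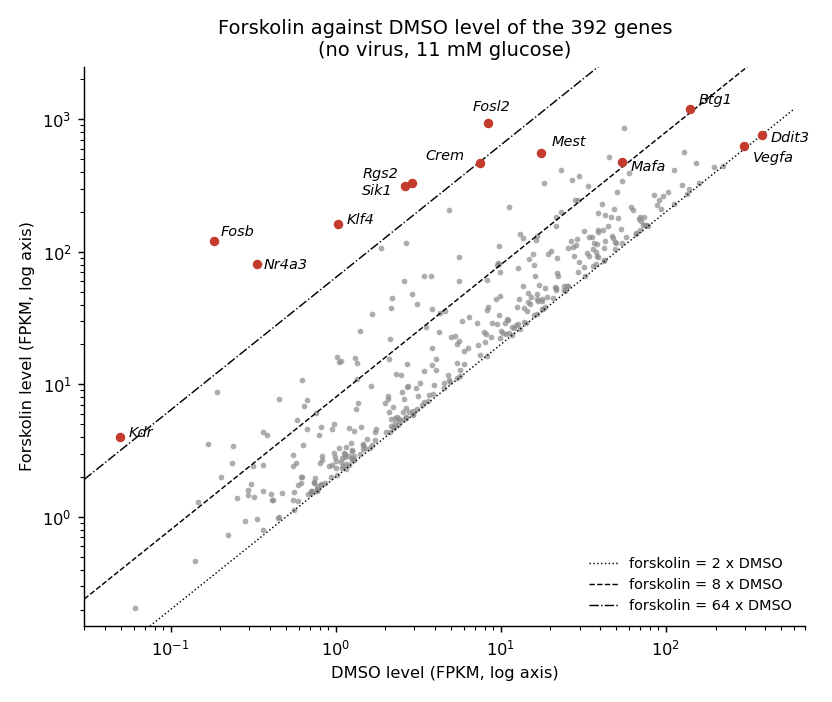
Level with forskolin (vertical axis, FPKM, log scale) against level with DMSO (horizontal axis, FPKM, log scale) for the 392 genes without virus at 11 mM glucose, 1 library a side, with 1 point per gene. Dotted, dashed and dash-dotted lines mark forskolin at 2, 8 and 64 times DMSO, and red points carry their names. All points lie above the 2-fold line because the authors listed genes by this ratio, and the genes with folds of 100 or more have DMSO levels below 10 FPKM.

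The largest folds belonged to 6 genes, all transcription factors or signal inhibitors, with less than 10 FPKM under DMSO. Fosb, an AP-1 subunit, had 119.9 FPKM with forskolin and 0.183 FPKM with DMSO, a fold of 424. Nr4a3, an orphan nuclear receptor, had 81.3 FPKM with forskolin and 0.332 FPKM with DMSO, a fold of 189. Klf4, a zinc finger factor, had 162 FPKM with forskolin and 1.03 FPKM with DMSO, a fold of 144. Sik1, Fosl2 and Rgs2 were already above 2 FPKM with DMSO. Sik1, a salt-inducible kinase that restrains CRTC coactivators, had 314 FPKM with forskolin and 2.62 FPKM with DMSO, a fold of 115. Fosl2, also an AP-1 subunit, had 933 FPKM with forskolin and 8.31 FPKM with DMSO, a fold of 111. Rgs2, which speeds up GTP hydrolysis by G protein alpha subunits, had 330.0 FPKM with forskolin and 2.89 FPKM with DMSO, a fold of 110.4. Among these, Fosl2 stood out in level, with the second highest forskolin level of all 392 genes.

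The folds of Fosb, Nr4a3 and Klf4 rest on low DMSO levels and on the pseudocount. Among listed genes under the level threshold, 1 read was worth about 0.106 FPKM at the median gene of the DMSO library (quartiles 0.0722 and 0.149). Fitted on the same low genes, the depth of the forskolin library was 0.904 of that of the DMSO library. Library scaling, which is not given, may enter this value. Read counts of Fosb, Nr4a3 and Klf4 themselves were not recovered. With a pseudocount of 1 FPKM the log2 fold was 6.68 for Fosb, 5.95 for Nr4a3 and 6.33 for Klf4, against 8.73, 7.56 and 7.17 with 0.1 FPKM. Other named genes whose fold moved by over 1.5 times also started low. With 1 FPKM their log2 fold was 3.04 for Fosl1, 2.87 for Tgfb2, 3.09 for Spry1, 2.58 for Rxfp3, 1.96 for Prdm1 and 2.93 for Id2. It was 2.36 for Penk, 1.32 for Thbs1, 1.00 for Sstr2, 1.47 for Egfr, 1.01 for Areg and 0.59 for Fgf1.

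**Figure D2:**
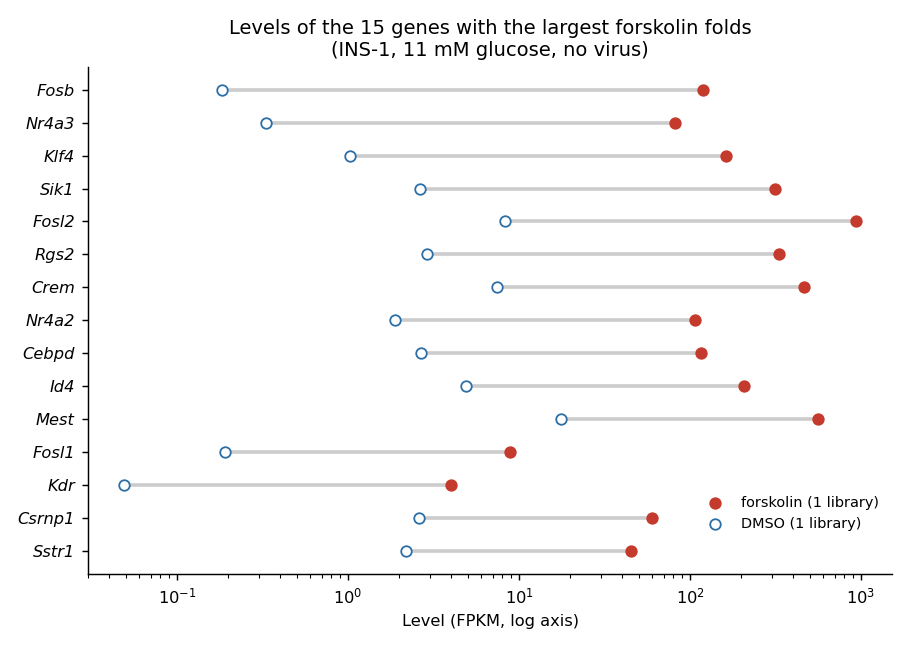
Level in FPKM (log axis) of the 15 genes with the largest folds, in the forskolin and the DMSO library without virus, 1 point per library. Forskolin levels run up to 933 FPKM for Fosl2, while the DMSO points of Fosb, Nr4a3, Fosl1 and Kdr lie below 1 FPKM.

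Of the genes that feed back on cAMP and CREB signalling, Sik1, Crem and Rgs2 had some of the largest folds, and the others did not. Of a list of 16 CREB feedback and coactivator genes 3 were among the 392. A fold of 8 or more was found in 2 of these 3, against 15.6% of all 392. After Sik1, Crem, which encodes the repressor ICER from an internal promoter, had 465 FPKM with forskolin and 7.46 FPKM with DMSO, a fold of 61.6. Creb3l2, a membrane-bound relative of CREB, had 28.9 FPKM with forskolin and 14.3 FPKM with DMSO, a fold of 2.02. Of 52 genes of cAMP, protein kinase A and G protein signalling 4 were among the 392, with 1 at 8-fold or more. Pde4b of this list lay under the level threshold. Beside Rgs2 the 4 were Pde4d, a phosphodiesterase that breaks down cAMP, at 38.4 and 8.38 FPKM with forskolin and DMSO (fold 4.54), Akap12, an anchor of protein kinase A, at 184 and 46.4 FPKM (fold 3.95), and Rgs16, which also acts on G protein alpha subunits, at 155 and 44.9 FPKM (fold 3.46). The folds of the 2 lists thus spread from 2.02 to 115, and the kinase Sik1, the repressor Crem and Rgs2 stood far above the rest.

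The full cAMP response element, TGACGTCA, was looked for in the promoters of these genes, taken from RefSeq on the rat assembly GRCr8 as 250 bases before to 50 bases after each start. The 8 bases are their own reverse complement, so that both strands hold the same match, and each match also holds the 5-base core TGACG, searched on both strands. The 7 genes with a fold of 8 or more that hold the full element are shown, 5′ to 3′ along the gene, with the element in capitals and 1 window per gene.
Crem, chr17:58985240-58985539, plus strand: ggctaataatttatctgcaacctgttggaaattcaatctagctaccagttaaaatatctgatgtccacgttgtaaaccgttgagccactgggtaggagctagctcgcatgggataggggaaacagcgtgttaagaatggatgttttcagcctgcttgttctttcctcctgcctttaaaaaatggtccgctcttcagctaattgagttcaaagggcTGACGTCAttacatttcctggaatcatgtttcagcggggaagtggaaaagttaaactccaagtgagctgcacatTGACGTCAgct
Lrrtm2, chr18:27096918-27097217, minus strand: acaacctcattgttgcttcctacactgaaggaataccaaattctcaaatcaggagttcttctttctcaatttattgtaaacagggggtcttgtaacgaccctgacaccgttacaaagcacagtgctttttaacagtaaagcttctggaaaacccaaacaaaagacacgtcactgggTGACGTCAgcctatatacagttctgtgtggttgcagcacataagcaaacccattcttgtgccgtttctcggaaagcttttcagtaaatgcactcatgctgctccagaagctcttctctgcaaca
Dusp1, chr10:17184603-17184902, plus strand: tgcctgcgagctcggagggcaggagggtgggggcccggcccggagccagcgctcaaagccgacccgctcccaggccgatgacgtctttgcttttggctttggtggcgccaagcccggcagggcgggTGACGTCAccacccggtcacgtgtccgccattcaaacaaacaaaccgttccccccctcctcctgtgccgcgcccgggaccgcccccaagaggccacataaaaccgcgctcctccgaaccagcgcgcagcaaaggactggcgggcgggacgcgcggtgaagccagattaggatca
Plk2, chr2:43702286-43702585, plus strand: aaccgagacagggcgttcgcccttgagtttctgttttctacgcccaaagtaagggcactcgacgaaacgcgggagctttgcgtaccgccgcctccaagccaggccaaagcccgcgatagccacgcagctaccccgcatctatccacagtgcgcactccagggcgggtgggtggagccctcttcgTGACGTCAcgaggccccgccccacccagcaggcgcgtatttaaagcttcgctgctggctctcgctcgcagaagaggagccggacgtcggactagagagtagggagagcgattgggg
Maff, chr7:112792537-112792836, plus strand: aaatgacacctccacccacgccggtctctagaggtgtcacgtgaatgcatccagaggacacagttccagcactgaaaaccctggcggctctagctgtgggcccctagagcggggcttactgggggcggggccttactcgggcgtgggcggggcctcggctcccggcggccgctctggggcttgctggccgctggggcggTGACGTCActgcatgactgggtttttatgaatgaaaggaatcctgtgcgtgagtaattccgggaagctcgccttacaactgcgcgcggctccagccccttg
Btg2, chr13:48087641-48087940, minus strand: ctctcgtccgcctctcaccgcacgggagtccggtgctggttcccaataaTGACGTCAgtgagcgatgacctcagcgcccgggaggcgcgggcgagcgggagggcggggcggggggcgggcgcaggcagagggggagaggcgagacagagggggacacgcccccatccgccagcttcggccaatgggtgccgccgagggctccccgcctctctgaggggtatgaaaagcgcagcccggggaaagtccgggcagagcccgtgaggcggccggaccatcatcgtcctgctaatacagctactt
Ppargc1a, chr14:63634058-63634357, plus strand: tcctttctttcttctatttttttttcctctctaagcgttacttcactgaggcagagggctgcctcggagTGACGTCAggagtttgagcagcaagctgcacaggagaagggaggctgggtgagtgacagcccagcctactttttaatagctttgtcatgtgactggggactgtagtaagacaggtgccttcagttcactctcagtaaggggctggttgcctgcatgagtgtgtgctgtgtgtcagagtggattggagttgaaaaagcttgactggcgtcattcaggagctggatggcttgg
The Crem window is 1 of 3 annotated starts and holds the element at 2 places, centred at -31 and 43 from the start. In the others the centre lay at -70 in Lrrtm2, -120 in Dusp1, -62 in Plk2, -47 in Maff, -197 in Btg2 and -177 in Ppargc1a. Lrrtm2, a synaptic adhesion protein, had 34.1 FPKM with forskolin and 1.67 FPKM with DMSO, a fold of 19.4. Plk2, a kinase of the polo-like family, had 15.8 FPKM with forskolin and 1.30 FPKM with DMSO, a fold of 11.4.

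Promoter windows were found for 309 of the 392 genes, 327 windows in all since some genes have several starts. The full element was in 31 of them (9.48%), against 612 of the 33469 windows of all rat genes (1.83%). The core was in 139 windows (42.5%), against 7097 of all (21.2%). By fold, the full element was in 8 of 51 windows (15.7%) of genes with a fold of 8 or more, in 8 of 51 (15.7%) with a fold of 4 to below 8, and in 15 of 225 (6.67%) with a fold below 4. Among listed genes under the level threshold it was in 3 of 134 windows (2.24%). Base composition differed between these sets: the median GC content was 62.7% in windows of the 392 genes, 58% in those of the listed genes under the threshold and 51.7% in all windows. Within the 392 genes it was 62.3% at a fold of 8 or more, 59.3% at 4 to below 8 and 63.7% below 4. The part of base composition in the shares was not tested. Of the 15 genes with the largest folds 12 had a window, 1 of these (Crem) held the full element and 6 held the core. No match says only that the letters are not in this window.

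**Figure D3:**
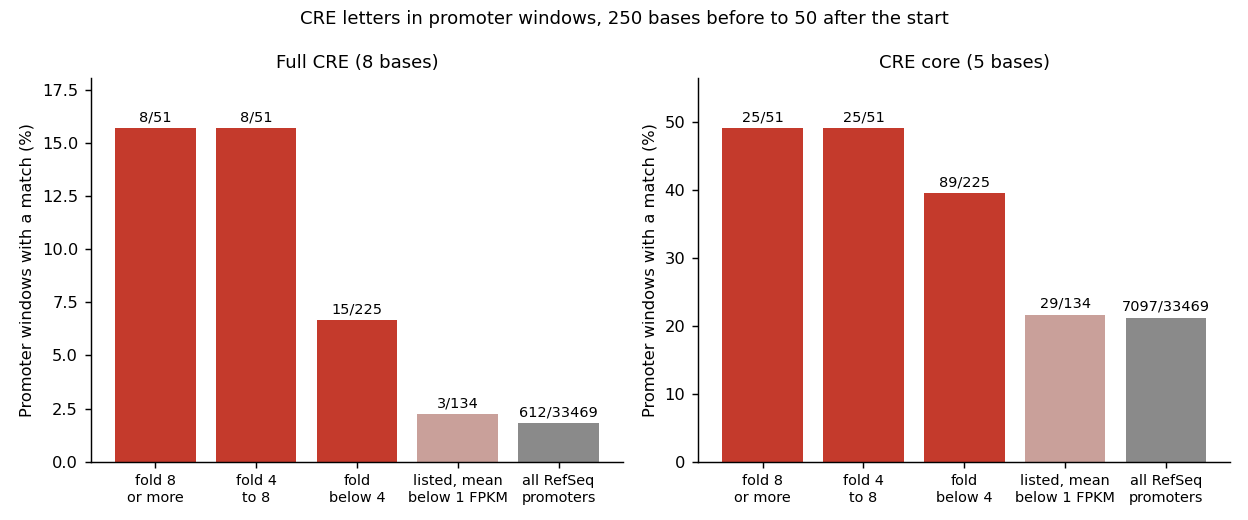
Percent of RefSeq promoter windows (250 bases before to 50 after the start) with the full element (left) and with its 5-base core (right), for the 392 genes by fold class (red), for listed genes with a mean below 1 FPKM and for all RefSeq promoters, with the counts above the bars. The full element is in 15.7% of the windows of genes with a fold of 8 or more and in 1.83% of all windows.

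AP-1 factors, dimers of Fos and Jun family proteins encoded by immediate early genes, formed the list with the most 8-fold genes. Of 14 AP-1 genes 7 were among the 392, and 6 of them had a fold of 8 or more, against 15.6% of all 392. The median fold of the 7 was 18.7, against 2.84 over all 392. The median log2 fold of the list was 4.22, and 3.61 with a pseudocount of 1 FPKM. Fos had 65.5 FPKM with forskolin and 3.42 FPKM with DMSO, a fold of 18.7. Fosl1 had 8.80 FPKM with forskolin and 0.191 FPKM with DMSO, a fold of 30.6. Junb had 374 FPKM with forskolin and 29.7 FPKM with DMSO, a fold of 12.5. Maff, a small Maf protein that pairs with other leucine zipper factors, had 60.2 FPKM with forskolin and 5.61 FPKM with DMSO, a fold of 10.6. Jund was the exception, with 319 FPKM with forskolin, 126 FPKM with DMSO and a fold of 2.53. Jund had the highest DMSO level of the list and the lowest fold. The DMSO level is the divisor of the fold, so such an inverse order is partly arithmetic.

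Of 29 nuclear receptors and their coregulators 5 were among the 392. Their median log2 fold was 3.68, and 4.71 over the 4 of them with a mean of 5 FPKM or more. All 3 Nr4a genes were present: Nr4a2 had 106 FPKM with forskolin and 1.88 FPKM with DMSO (fold 53.7), and Nr4a1 had 349.6 and 27.1 FPKM (fold 12.8). The order of the folds of Nr4a3, Nr4a2 and Nr4a1 was the reverse of the order of their DMSO levels. That is partly arithmetic, since the DMSO level is the divisor of the fold. Ppargc1a, the coactivator PGC-1α of mitochondrial gene programmes, had 79.4 FPKM with forskolin and 9.46 FPKM with DMSO, a fold of 8.32. Rorb, a retinoid-related orphan receptor, had 2.70 FPKM with forskolin and 1.29 FPKM with DMSO, a fold of 2.02. Of 11 Egr and Ier immediate early genes 3 were among the 392. None reached 8-fold, against 15.6% of all 392, but 3 genes are too few to set against that share. Egr1 had 61.4 FPKM with forskolin and 8.20 FPKM with DMSO (fold 7.41), Ier2 had 8.80 and 2.53 FPKM (fold 3.38), and Egr4 had 4.42 and 1.29 FPKM (fold 3.26).

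Of 49 Klf, Cebp, Id and related regulators 7 were among the 392. A fold of 8 or more was found in 5 of them, against 15.6% of all 392. Cebpd, a leucine zipper factor, had 116 FPKM with forskolin and 2.68 FPKM with DMSO, a fold of 41.9. Id4 and Id2 encode inhibitors that keep basic helix-loop-helix factors from DNA. Id4 had 206 FPKM with forskolin and 4.89 FPKM with DMSO, a fold of 41.3. Id2 had 14.7 FPKM with forskolin and 1.05 FPKM with DMSO, a fold of 12.8. Prdm1, a transcriptional repressor, had 3.55 FPKM with forskolin and 0.169 FPKM with DMSO, a fold of 13.6. The smaller folds of this list belonged to genes with a higher DMSO level, which is the divisor of the fold. Zfp36, which promotes decay of AU-rich mRNAs, had 33.1 and 9.70 FPKM with forskolin and DMSO (fold 3.39). Cebpb had 83.2 and 29.7 FPKM (fold 2.79).

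MAP kinase phosphatases and other feedback inhibitors of growth signalling were represented by 8 of 24 genes, of which 3 had a fold of 4 or more, against 31.9% of all 392. Dusp1, which dephosphorylates MAP kinases, had 414 FPKM with forskolin and 23.3 FPKM with DMSO, a fold of 17.7. Spry1, an inhibitor of receptor tyrosine kinase signalling, had 16.2 FPKM with forskolin and 1.01 FPKM with DMSO, a fold of 14.6. Dusp10 had 32.2 FPKM with forskolin and 6.46 FPKM with DMSO, a fold of 4.93. Dusp5, Errfi1, Dusp4, Trib2 and Dusp8 had folds of 3.34, 2.78, 2.43, 2.36 and 2.20. Of 39 small GTPases and their regulators 5 were among the 392. Rasd1, a Ras relative induced by hormones, had 245 FPKM with forskolin and 29.4 FPKM with DMSO (fold 8.34), Net1, a guanine nucleotide exchange factor, had 344 and 54.4 FPKM (fold 6.30), and Gem, a GTPase that restrains calcium channels, had 195 and 38.8 FPKM (fold 5.02).

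Clock genes were few but all above 4-fold, with 3 of 18 among the 392. Of all 392 genes 31.9% had a fold of 4 or more, and 3 genes are too few to set against that share. Cry2, a repressor of the clock, had 329.6 FPKM with forskolin and 18.4 FPKM with DMSO, a fold of 17.9. Per1, the partner repressor whose gene responds to cAMP in many cells, had 124 FPKM with forskolin and 16.3 FPKM with DMSO, a fold of 7.54. Nfil3, a repressor of clock output genes, had 229 FPKM with forskolin and 41.2 FPKM with DMSO, a fold of 5.55.

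Secreted peptides were present in 6 of 48 genes, 5 of them at 4-fold or more, against 31.9% of all 392. Stc1, the glycoprotein hormone stanniocalcin, had 40.6 FPKM with forskolin and 3.12 FPKM with DMSO, a fold of 12.7. Penk, the enkephalin precursor, had 7.59 FPKM with forskolin and 0.670 FPKM with DMSO, a fold of 9.99. Tac1, the substance P precursor, Cartpt, the CART peptide precursor, and Cck, cholecystokinin, had similar folds at unlike levels. Tac1 had 209 and 48.5 FPKM with forskolin and DMSO (fold 4.30), Cartpt 23.1 and 5.25 FPKM (fold 4.35) and Cck 107 and 25.7 FPKM (fold 4.15). Calca, the precursor of calcitonin and CGRP, had 4.69 and 1.20 FPKM (fold 3.68).

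Of 47 G protein coupled receptors 6 were among the 392. Sstr1, a receptor for somatostatin, which inhibits adenylyl cyclase, had 45.2 FPKM with forskolin and 2.18 FPKM with DMSO, a fold of 19.9. Rxfp3, the relaxin-3 receptor, had 7.70 FPKM with forskolin and 0.454 FPKM with DMSO, a fold of 14.1. Sstr2, also a somatostatin receptor, had 1.30 and 0.147 FPKM with forskolin and DMSO (fold 5.65), and Gpr6, an orphan receptor that raises cAMP, had 80.0 and 15.9 FPKM (fold 5.01). Adra2a, the adrenergic receptor through which catecholamines inhibit insulin release, had 23.5 and 11.7 FPKM (fold 2.00). Sstr1, Sstr2 and Adra2a signal through inhibitory G proteins. Gprc5b had 45.6 and 19.0 FPKM (fold 2.40).

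Among 56 growth factors and receptors 8 were present, with a median fold of 3.41. That median depended on the low members: on the log2 scale it was 1.77, against 1.06 with a pseudocount of 1 FPKM and 1.08 over the 4 genes with a mean of 5 FPKM or more. Hbegf, a ligand of the EGF receptor, had 219.8 FPKM with forskolin and 11.2 FPKM with DMSO, a fold of 19.5. Tgfb2 had 10.9 FPKM with forskolin and 0.627 FPKM with DMSO, a fold of 15.1. The EGF receptor itself and a further ligand were also listed, both at low levels. Egfr had 3.51 and 0.634 FPKM with forskolin and DMSO (fold 4.92), and Areg, amphiregulin, had 1.61 and 0.294 FPKM (fold 4.32). Vegfa, the vascular growth factor, and Gdf15, a stress-induced cytokine, had large levels and small folds. Vegfa had 627 FPKM with forskolin and 296 FPKM with DMSO (fold 2.12), and Gdf15 had 229.8 and 112 FPKM (fold 2.06). Of 50 cytokine, NF-κB and antiviral genes 9 were present, with a median fold of 3.43. The highest level of these 9 with forskolin was that of Cd274, which encodes PD-L1, at 35.96 FPKM, against 4.57 FPKM with DMSO, a fold of 7.72.

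Of 33 beta cell and endocrine transcription factors 5 were among the 392. Mafa, an activator of the insulin gene, had 474 FPKM with forskolin and 54.2 FPKM with DMSO, a fold of 8.73. Neurod2, St18, Nkx2-2 and Pdx1 had folds below 4 from DMSO levels of at least 25.5 FPKM. Neurod2 had 129 and 35.8 FPKM with forskolin and DMSO (fold 3.58), and St18, a zinc finger factor, had 282 and 103 FPKM (fold 2.72). Nkx2-2, required for beta cell identity, had 54.9 and 25.5 FPKM (fold 2.15), and Pdx1, the pancreatic master regulator, had 146 and 69.8 FPKM (fold 2.09). Of 8 beta cell markers, Pdx1 and Mafa were in the table, while Ins1, Ins2, Iapp, Nkx6-1 and Slc2a2 were in neither table and are not analysed here. Of 28 markers of other cell types 1 was present: Kdr, a VEGF receptor of endothelial cells, at 3.98 FPKM with forskolin and 0.0491 FPKM with DMSO. Its log2 fold was 4.77 and depended on the pseudocount, at 2.25 with 1 FPKM and 6.08 with 0.01 FPKM.

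In insulin and IGF signalling 3 of 36 genes were present. Irs2, the insulin receptor substrate on which beta cell survival depends, had 283 FPKM with forskolin and 50.3 FPKM with DMSO, a fold of 5.62. Ddit4, an inhibitor of the growth kinase mTORC1, had 188 FPKM with forskolin and 42.6 FPKM with DMSO, a fold of 4.41. Sesn1, also an inhibitor of that kinase, had 24.5 FPKM with forskolin and 10.3 FPKM with DMSO, a fold of 2.37.

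The largest difference in level among the 392 genes was that of a growth arrest gene. Of 41 cell cycle, growth arrest and apoptosis genes 11 were present. Of these 6 reached 4-fold and 4 reached 8-fold, against 31.9% and 15.6% of all 392. Btg1, an antiproliferative protein that recruits mRNA deadenylases, had 1197 FPKM with forskolin, the highest level of the 392, and 140.2 FPKM with DMSO, a fold of 8.53. Btg2, its relative, had 313 FPKM with forskolin and 33.9 FPKM with DMSO, a fold of 9.20. Plk3, a stress-responsive polo-like kinase, had 88.9 and 14.8 FPKM (fold 5.98). Cdkn1b, the cyclin-dependent kinase inhibitor p27, had 171 and 71.0 FPKM (fold 2.41), and Mcl1, an antiapoptotic relative of Bcl2, had 81.0 and 37.8 FPKM (fold 2.14). The list also holds a promoter of division: Ccnd1, cyclin D1, had 15.1 FPKM with forskolin and 1.08 FPKM with DMSO, a fold of 12.8.

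Stress response genes were already abundant with DMSO, and most had folds between 2 and 4. Of 48 genes of the integrated stress and unfolded protein responses 6 were present, with a median fold of 2.34, against 2.84 over all 392. None reached 8-fold, against 15.6% of all 392, but 6 genes are too few to set against that share. Ddit3, the factor CHOP, had 766 FPKM with forskolin and 380 FPKM with DMSO, a fold of 2.01. Ppp1r15a, the phosphatase subunit GADD34 that restores translation, had 470.0 FPKM with forskolin and 153 FPKM with DMSO, a fold of 3.07. Atf3, a stress-induced repressor, had 176 FPKM with forskolin and 68.5 FPKM with DMSO, a fold of 2.57. Ppp1r15b and Dnajb9, an ER chaperone partner, had folds of 2.14 and 2.11. Srxn1, which repairs oxidised peroxiredoxins, was the only one of the 6 above 4-fold, with 144 and 31.7 FPKM with forskolin and DMSO (fold 4.52).

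Of 56 fuel metabolism genes 6 were present, with a median fold of 2.89, against 2.84 over all 392 genes. A fold of 4 or more was found in 2 of the 6, against 31.9% of all 392. Lpin1, a phosphatidate phosphatase, had 36.5 FPKM with forskolin and 8.31 FPKM with DMSO (fold 4.35), and Pfkfb3, which makes the activator of glycolytic phosphofructokinase, had 29.2 and 7.16 FPKM (fold 4.04). Insig1, a brake on sterol synthesis, had 140.0 and 38.8 FPKM (fold 3.60), and Gpt2, a mitochondrial alanine transaminase, had 116 and 49.96 FPKM (fold 2.32). Of 51 solute carriers 7 were present, with a median fold of 2.21. The amino acid transporters Slc7a5, Slc7a1 and Slc1a4 had 445, 274 and 149 FPKM with forskolin, and 221, 134 and 53.7 FPKM with DMSO. Slc25a25, a mitochondrial ATP-Mg carrier, had the largest fold of this list, 4.54, with 121 FPKM with forskolin and 26.7 FPKM with DMSO. Of 58 ion channels 3 were present, all below 4-fold, while 31.9% of all 392 were at 4-fold or more. These 3 genes are too few to set against that share. Kcnf1 and Trpc4 had 1.49 and 2.00 FPKM with forskolin, and 0.676 and 0.938 FPKM with DMSO.

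Smaller groups completed the lists. Of 33 activity-regulated synaptic genes 7 were present, among them Nedd9, an adhesion scaffold, at 111 and 9.75 FPKM with forskolin and DMSO (fold 11.3), and Syt4, a synaptotagmin of secretory vesicles, at 159 and 77.2 FPKM (fold 2.06). Of 59 adhesion, matrix and cytoskeleton genes 2 were present: Actn2, an actin crosslinker of muscle, at 66.2 and 3.76 FPKM (fold 17.2), and Thbs1, thrombospondin, given above. Of 43 chromatin regulators 3 were present, Arid5a (fold 5.66), Cbx8 of the Polycomb complex (fold 2.48) and Hexim1, an inhibitor of the elongation kinase P-TEFb (fold 2.27).

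**Figure D4:**
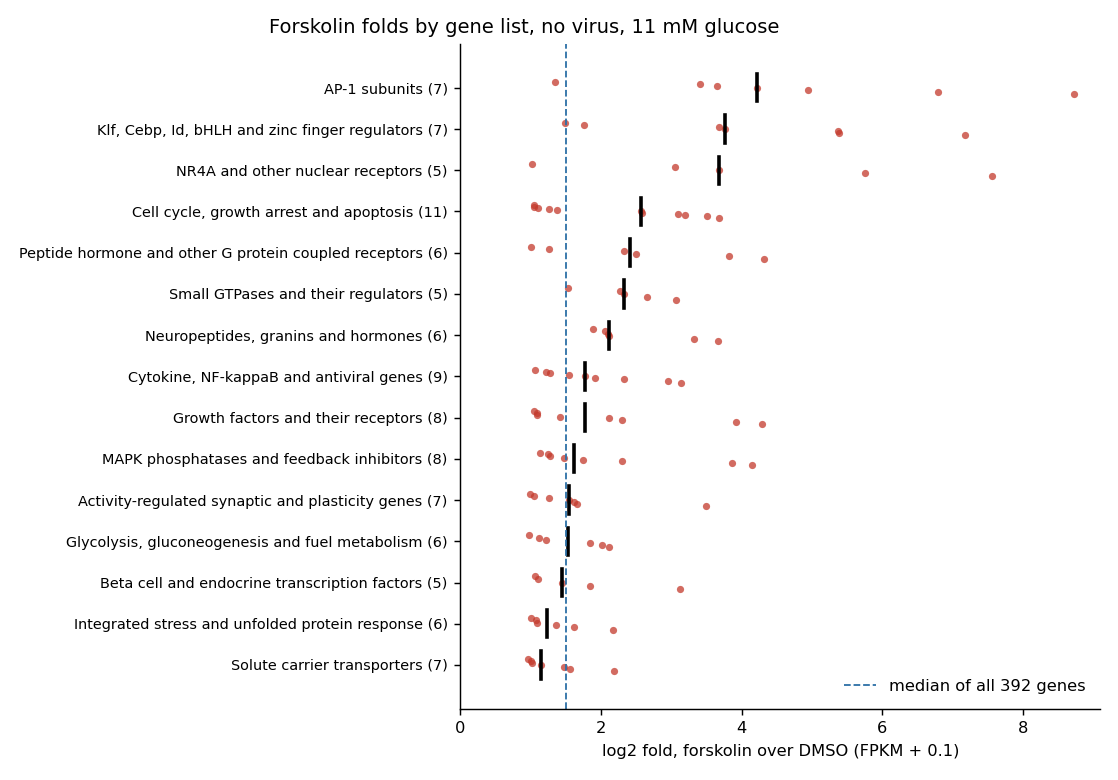
Log2 fold, forskolin over DMSO without virus, of the genes in each functional list with 5 or more of them, with 1 point per gene, a black bar at the median of the list and a dashed line at the median of all 392 genes. The AP-1 list has a median fold of 18.7 and the nuclear receptor list one of 12.8, while solute carriers have 2.21 and the stress response list 2.34.

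The lists hold 128 of the 392 genes, and some of the most abundant genes lie outside them. Mest, an imprinted gene of the hydrolase family, had 558 FPKM with forskolin and 17.5 FPKM with DMSO, a fold of 31.6. The gene that the files call LOC689986, RefSeq symbol C14h1orf146, had 860.4 FPKM with forskolin and 55.6 FPKM with DMSO, a fold of 15.5. Diras2, a Ras-like GTPase, had 519 FPKM with forskolin and 45.2 FPKM with DMSO, a fold of 11.5. These stood in the first 10 by level. Ldhb, a lactate dehydrogenase subunit, had 483 FPKM with forskolin and 54.6 FPKM with DMSO (fold 8.83), and Mapkapk2, a kinase downstream of p38, had 569 and 129 FPKM (fold 4.40). Csrnp1, the product of an immediate early gene, had 60.3 and 2.61 FPKM (fold 22.3). Summed over the 392 genes, the level was 31344 FPKM with forskolin and 7789.8 FPKM with DMSO. The 10 genes with the largest differences, Btg1, Fosl2, C14h1orf146, Mest, Diras2, Crem, Mapkapk2, Ldhb, Mafa and Dusp1, held 25.2% of the summed difference.

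The median fold differed little between classes of DMSO level below 100 FPKM. The ratio cut, the level threshold and the pseudocount act unequally on these classes. The medians therefore do not show how the fold depends on level. The median fold was 2.94 in the 76 genes below 1 FPKM with DMSO, 2.91 in the 160 genes from 1 to below 10 FPKM, 2.79 in the 142 genes from 10 to below 100 FPKM and 2.20 in the 14 genes from 100 FPKM. Folds of 8 or more were found in 13, 30, 17 and 1 gene of these classes (17.1%, 18.8%, 12.0% and 7.14%), against 15.6% of all 392. The 1 gene from 100 FPKM was Btg1.

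The same genes can be followed at other glucose levels in the glucose table, which has its own libraries and which the authors cut by the forskolin ratio at 2.8 mM. Of the 392 genes 288 (73.5%) were listed there, which is 21.4% of its 1344 genes. The share was 60 of 61 (98.4%) for genes with a fold of 8 or more at 11 mM, 58 of 64 (90.6%) for 4 to below 8, and 170 of 267 (63.7%) below 4. The exception above 8-fold was Efnb2, an ephrin ligand, with 5.41 FPKM with forskolin and 0.583 FPKM with DMSO. The share also moved with level: it was 35 of 76 (46.1%) below 1 FPKM with DMSO and 14 of 14 from 100 FPKM, and the part of level was not tested.

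At 20 mM, by whose ratio neither table was cut, 223 of the 288 genes (77.4%) had a fold of 2 or more, against 38.5% of the 1269 genes of the glucose table with no value of 0 at 20 mM. Forskolin was below DMSO at 20 mM in 11 of the 288 (3.82%), against 11.2% of those 1269. The 1269 genes include the 288 and, unlike them, passed no level threshold. The part of level in these shares was not tested. For the 288 genes the median fold was 3.38 at 11 mM, 6.22 at 2.8 mM and 3.12 at 20 mM. Across genes the folds at 11 mM had a Spearman rank correlation of 0.60 with those at 2.8 mM and 0.53 with those at 20 mM over the 288 genes, which were all selected at both 11 mM and 2.8 mM and are not independent. The 60 genes of 8-fold or more had median folds of 13.2 at 11 mM, 22.7 at 2.8 mM and 8.22 at 20 mM, and 56 of them had a fold of 2 or more at 20 mM. Cultures differed in more than glucose between the tables, with 3 days at a set glucose in the glucose table, so that glucose and table cannot be told apart.

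**Figure D5:**
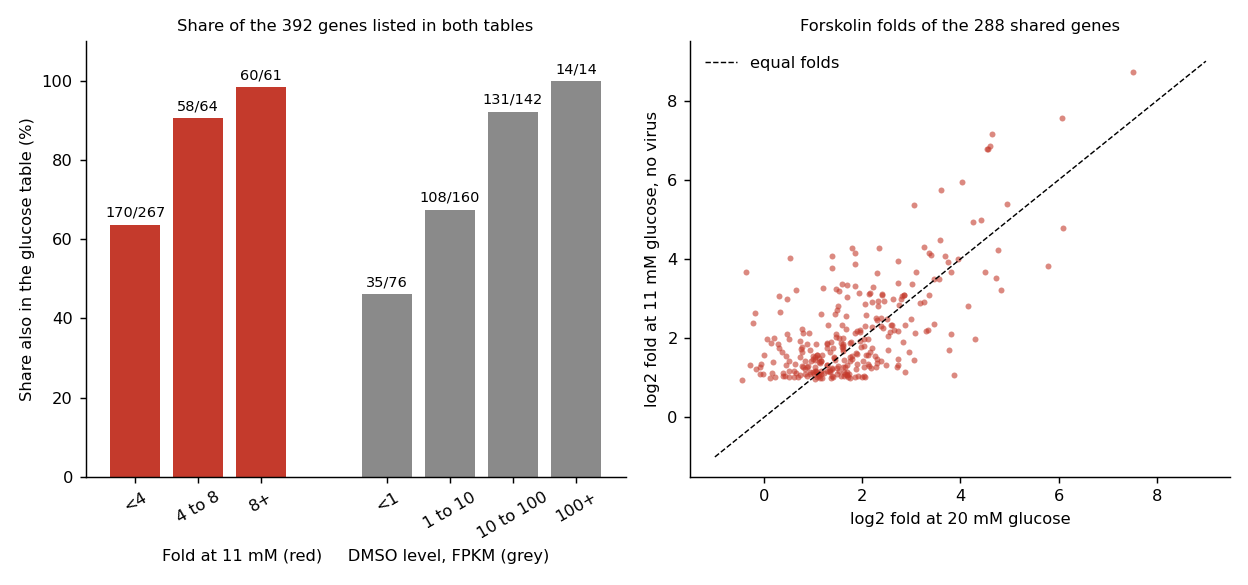
Left, percent of the 392 genes that are also in the glucose table, by fold at 11 mM (red bars) and by DMSO level in FPKM (grey bars), with the counts above the bars. Right, log2 fold, forskolin over DMSO, without virus at 11 mM (vertical axis) against that at 20 mM glucose (horizontal axis) for the 288 shared genes, 1 point per gene, with a dashed line at equal folds; the median folds are 3.38 at 11 mM and 3.12 at 20 mM.

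Some genes with like folds at 11 mM had unlike folds in the glucose table. Tac1, Cartpt and Cck, all near 4-fold at 11 mM, had folds of 124, 62.9 and 20.7 at 2.8 mM and of 14.0, 8.40 and 5.79 at 20 mM. Within the glucose table, the DMSO level of Tac1 was 0.968 FPKM with 2.8 mM and 1.02 FPKM with 20 mM glucose. Rxfp3 had folds of 14.1 at 11 mM, 157 at 2.8 mM and 54.8 at 20 mM. Other genes had their largest fold at 11 mM. Mafa had folds of 8.73 at 11 mM, 4.27 at 2.8 mM and 5.27 at 20 mM, and Btg2 had 9.20, 3.83 and 2.86. Klf4 had folds of 144 at 11 mM, 82.0 at 2.8 mM and 25.04 at 20 mM. The small GTPase regulators Rasd1 and Net1, with folds of 8.34 and 6.30 at 11 mM, had 9.49 and 7.17 at 2.8 mM but 1.23 and 1.26 at 20 mM. Of the 288 shared genes 25 had folds above 10 in all 3 conditions, among them Fosb, Nr4a3, Klf4, Sik1, Fosl2, Rgs2 and Crem.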

How the data were processed

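The labels' protocols name Trizol extraction, a column clean-up and mRNA libraries from NEBNext Ultra kits. The submitters' processing notes name TopHat2 for alignment, Cuffdiff for levels and the genome build rn5. Versions, annotation, use of strand and library scaling are not given in the sources used here, and unequal scaling of the forskolin and DMSO libraries would move every fold alike. The authors deposited FPKM values, cut to genes above a ratio of 2.

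Libraries were grouped by title and columns by name. RefSeq symbols matched 524 of the 566 names, gene IDs 9 and synonyms 31, with 2 unmatched. Folds, medians and counts were computed in Python 3.11.15 with pandas 2.3.3 and checked on simulated data. Each median has a 95% order-statistic interval that covers genes, taken as independent, and not cultures. With 1 library per group, no comparison was tested. None of the 392 genes was at 0 in a library without virus, and 5 were at 0 in an adenovirus library, for which no fold was formed there.

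Depth was read from whole-read steps: of 135 low genes with no 0, 127 (94.1%) had values that were whole reads within 2%. About 9.46 reads made 1 FPKM at the median such gene. The library scales were fitted on the same 135 genes. Of their forskolin over DMSO ratios without virus, 64.4% lay on whole-read steps at a tighter tolerance. Read counts of the other genes were not recovered.

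The members, the 24 gene lists and the named genes were chosen with earlier results of these data known. Named genes were the 15 largest folds, the 10 highest forskolin levels, the 10 largest differences, up to 5 members of each list by forskolin level (all for lists of 8 or fewer) and those next to the threshold. Some genes that this rule names are not reported here. Lrrtm2, Plk2, Efnb2 and Ccnd1 were chosen after their values were seen. RefSeq windows carry GRCr8 coordinates, and the rn5 positions of the genes are not used here. Alternative settings were the pseudocount (1 and 0.01 FPKM), the level threshold (5 FPKM, none, or over the 2 libraries without virus), leaving out genes at 0, and the core motif.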

Additional observations from a re-analysis of the deposited data

Results flagged for a closer look

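Some named genes with a higher forskolin than DMSO level without virus had a lower one in the adenovirus libraries labelled ACREBvirus. The log2 fold there was -0.73 for Penk, -0.65 for Trpc4, -0.62 for Fstl3, -0.48 for Egr4, -0.46 for Arg2, -0.34 for Nfkb2, -0.26 for Gpr6 and -0.26 for Sesn1. It was -0.20 for Areg, -0.17 for Lpin1, -0.16 for Il6r and -0.15 for Adra2a, and near 0 for Gprc5b (-0.064), Calca (-0.060) and Cd83 (-0.044). Penk, for instance, had 1.81 FPKM with forskolin and 3.07 FPKM with DMSO there. Over the 387 genes with no 0, forskolin was below DMSO in 82 (21.2%). Each contrast is 1 library a side and the difference was not tested. Infection and A-CREB cannot be told apart, since both libraries with virus carry A-CREB.

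At 20 mM glucose Id2 and Il6r had a lower level with forskolin than with DMSO, with log2 folds of -0.37 for Id2 and -0.17 for Il6r. Id2 had 8.22 FPKM with forskolin and 10.6 FPKM with DMSO at 20 mM, and 6.79 and 2.28 FPKM at 2.8 mM. These differences were not tested either.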

How the results depend on the processing

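The median log2 fold of 1.50 moved beyond its interval to 1.31 with a pseudocount of 1 FPKM, to 1.60 with a level threshold of 5 FPKM (256 genes) and to 1.34 with no threshold (566 genes). The last setting lets in genes below 1 FPKM, and the cause of the other shifts was not tested. The share of promoter windows with a match was 42.5% with the core in place of the full element. Counts stayed within 1.5 times: genes at 4-fold or more ran from 90 to 133 and genes at 8-fold or more from 42 to 66. Medians of the lists rest on few genes, and those of 5 lists moved by over 1.5 times. With a pseudocount of 1 FPKM the median log2 fold was 3.61 for AP-1 genes, 2.93 for the Klf, Cebp and Id list, 1.74 for G protein coupled receptors and 1.06 for growth factors. With a threshold of 5 FPKM it was 4.71 for nuclear receptors, 4.52 for the Klf, Cebp and Id list, 1.79 for G protein coupled receptors and 1.08 for growth factors. No value could reverse under these alternatives, since the lowest ratio listed was 2.003, so the lack of a reversal says nothing about robustness. Of the 125 named genes 16 moved by over 1.5 times with a pseudocount of 1 FPKM and 1, Kdr, with 0.01 FPKM. No paired analysis was possible because each group has 1 library. Depth limits the genes below 1 FPKM with DMSO, where the median gene rests on about 9 reads or fewer, and no value here has a replicate.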

Other observations

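Glycan-building enzymes outside the lists, chosen after their values were seen, gave 10 genes of the 392. Of these 5 had a fold of 4 or more, against 31.9% of all 392. Because the genes were picked with their folds known, their share says nothing about the enzyme family as a whole. B3galt2, a galactosyltransferase, had 37.9 FPKM with forskolin and 2.16 FPKM with DMSO, a fold of 16.8. St8sia4, a polysialyltransferase, had 3.41 FPKM with forskolin and 0.240 FPKM with DMSO, a fold of 10.3. Gcnt3, a mucin-type branching enzyme, had 2.44 FPKM with forskolin and 0.317 FPKM with DMSO, a fold of 6.10.

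Ribosomal proteins, a family outside the lists and also chosen after its values were seen, gave 6 genes. Their folds were 2.03 to 3.11, with none at 4-fold, against 31.9% of all 392, but 6 genes are too few to set against that share. Rps24 had 228 FPKM with forskolin and 88.6 FPKM with DMSO, a fold of 2.57, and at 20 mM it had 104 FPKM with forskolin and 108 FPKM with DMSO. Rpl13 had 86.3 FPKM with forskolin and 42.4 FPKM with DMSO, a fold of 2.03. These genes have near-identical copies in the genome, and how reads were shared among the copies is not given in the sources used here, so their values are uncertain. Rpl13 and Rpl26 also hold the full cAMP response element in a promoter window, centred at -85 in Rpl13 and -126 in Rpl26.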
